A study of Mus musculus with 18 samples.

Results

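Myogenic progenitors made from pluripotent stem cells and labelled iPax7 were compared with fetal myoblasts, labelled Fet, across all expressed genes by bulk RNA sequencing. The comparison took the 3 libraries labelled iPax7 and the 3 labelled Fet, which are 6 of the 15 bulk libraries and of the 18 samples in the mouse series. The iPax7 cells were labelled as ES-derived. They had been sorted from embryoid bodies as Vcam1+ and Flk1-, replated, grown over 3 passages with doxycycline (Dox) and the growth factor bFGF, and lifted with a PBS-based buffer. The Fet cells were myogenic progenitors freshly sorted from E14.5 fetuses of a strain labelled My5Cre Rosa26YFP, read here as Cre driven from Myf5 with a YFP reporter at Rosa26. Such a reporter stays on in every descendant of a cell that once used the driver. Culture and fresh sorting went with the groups, so for every gene below handling and group cannot be told apart. The labels give no sort gate, sex or number of fetuses for Fet and no clone, line or separate derivation for iPax7, so the p-values below measure the spread between these libraries, which may be technical. The other bulk groups, 3 libraries each, were the PSC-derived iPax3 progenitors, embryonic myoblasts at E10.5 of the same strain as Fet (Emb), and neonatal satellite cells from hindlimb muscles at postnatal day 3 of a strain labelled Pax7-ZsGreen (Neo).

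Pax7 is a paired-box transcription factor that marks the progenitors of fetal muscle and the satellite cells of the adult. Skeletal muscle cells commit through the bHLH factors Myf5 and Myod1, differentiate under Myog and Mef2 factors, fuse, and build sarcomeres from muscle-specific myosins, actins, troponins and tropomyosins. In the fetus these cells lie among connective tissue, vessels, tendon and cartilage, and their Hox code records the position along the body axis and in the limb.

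Gene levels are given as CPM, a library's counts rescaled to a common total, and fold changes are log2 values of iPax7 over Fet from edgeR, with an approximate standard error. The p-values are from the quasi-likelihood F test of edgeR, adjusted by Benjamini-Hochberg over all 17571 tested genes, and a gene passed under 0.05. Where values of both fits are paired, the first has all libraries and the second leaves out the library labelled iPax7 replicate 1, unless said otherwise. Total counts were 27554142, 27768610 and 15852638 in iPax7 replicates 1 to 3, against 516504, 32017618 and 13487821 in Fet replicates 1 to 3. In the shallow Fet replicate 1 a count of 0 allows a level of up to 5.19 CPM by counting error alone, against at most 0.214 CPM in the other 5 libraries compared.

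The library labelled iPax7 replicate 1 went against its label. It held Pax7 at 0.989 CPM, whereas iPax7 replicates 2 and 3 held 111 and 349 CPM and the Fet libraries 55.3, 43.4 and 32.6 CPM. It also held genes of the pluripotent state at high levels. Pou5f1, the core pluripotency factor Oct4, stood at 550 CPM in that library, against 0.203 and 0.341 CPM in iPax7 replicates 2 and 3 and 0, 0.426 and 0.214 CPM in Fet. Nanog stood at 511, 1.05 and 0.683 CPM in iPax7 and at 1.73, 0.761 and 0.927 CPM in Fet. The sum over the 22 listed pluripotency genes, of which 15 were tested, was 6526, 59.9 and 37.0 CPM in iPax7 replicates 1 to 3. In Fet it was 204, 176 and 195 CPM. Germline genes were also present in that library, with Sycp3, a protein of the meiotic chromosome axis, at 134 CPM and Ddx4, a germ cell RNA helicase, at 63.9 CPM. Across genes, log2 CPM of iPax7 replicates 2 and 3 correlated at 0.967, and the library labelled iPax7 replicate 1 correlated at 0.827 with each of them, at 0.849 to 0.872 with iPax3 libraries and at 0.672 to 0.753 with Fet libraries. These correlations are across genes, which are not independent replicates. The Fet libraries and iPax7 replicates 2 and 3 held Pax7, Myod1 and Myog, the defining markers of their labelled cell type. Results below are therefore given with all libraries and without this one.

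**Figure D1:**
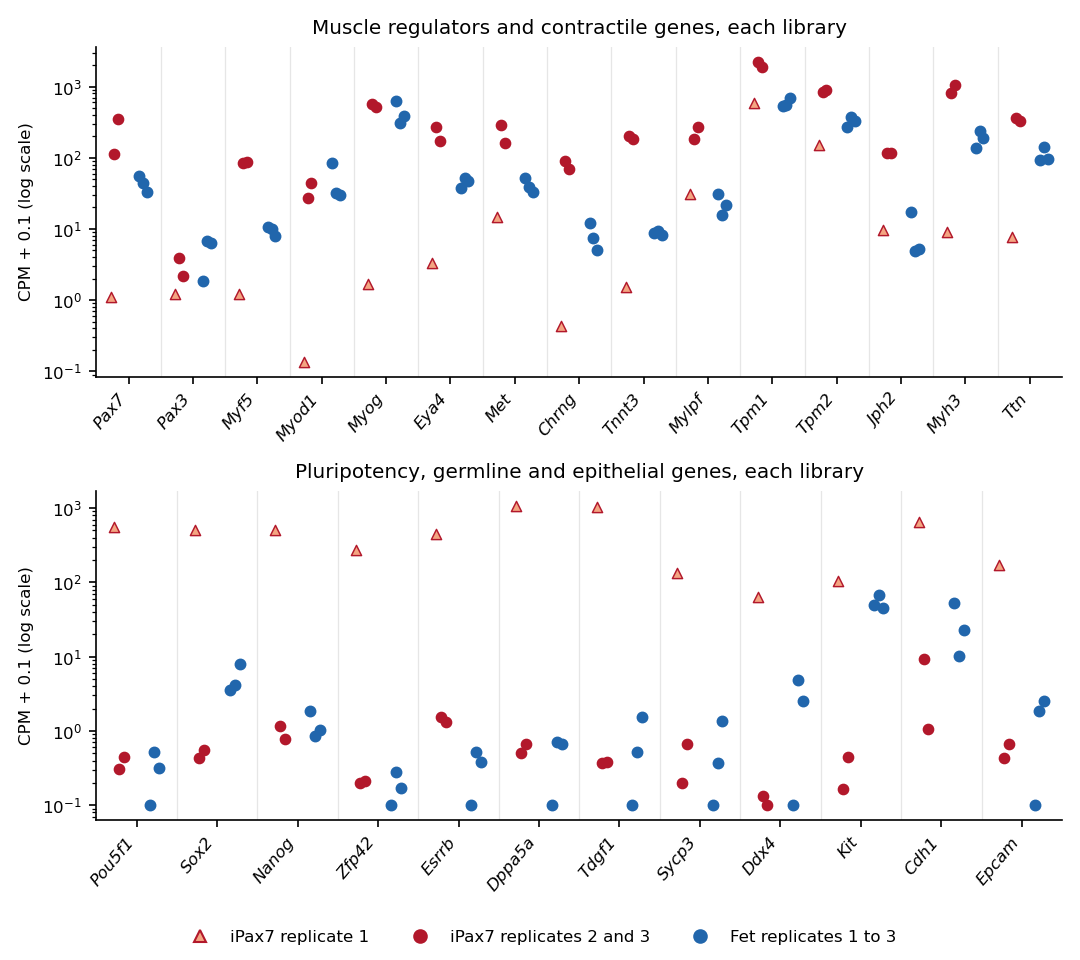
Level of muscle genes (top) and of pluripotency, germline and epithelial genes (bottom) in each library, as CPM plus 0.1 on a log axis, with iPax7 left of Fet for every gene. The triangle, the library labelled iPax7 replicate 1, lies below both other iPax7 libraries for all 15 muscle genes shown and above them for all 12 genes of the lower panel.

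With all 6 libraries 650 genes passed, 3.70% of those tested, of which 167 (0.950%) were higher and 483 (2.75%) lower in iPax7. Without the library labelled iPax7 replicate 1, 745 genes passed (4.24%), 211 higher (1.20%) and 534 lower (3.04%). The fits shared 491 genes, 103 higher and 388 lower, and none of these changed direction. A further 159 genes passed only with all libraries and 254 only without the library labelled iPax7 replicate 1. Of the 534 genes lower without that library, it lay on the iPax7 side of the midpoint between the groups for 407 (76.2%), but of the 211 higher genes for only 93 (44.1%). Among the shared calls, 289 held when any 1 of the 6 libraries was left out, 42 of them higher and 247 lower. The spread per gene was estimated over all 15 bulk libraries. A fit of iPax7 replicates 2 and 3 with Fet alone called 4391 genes (25.0%), 1822 higher (10.4%) and 2569 lower (14.6%). With all 6 libraries, a fit of these groups alone called 998 genes, and of the lists below some had more calls and others fewer.

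**Figure D2:**
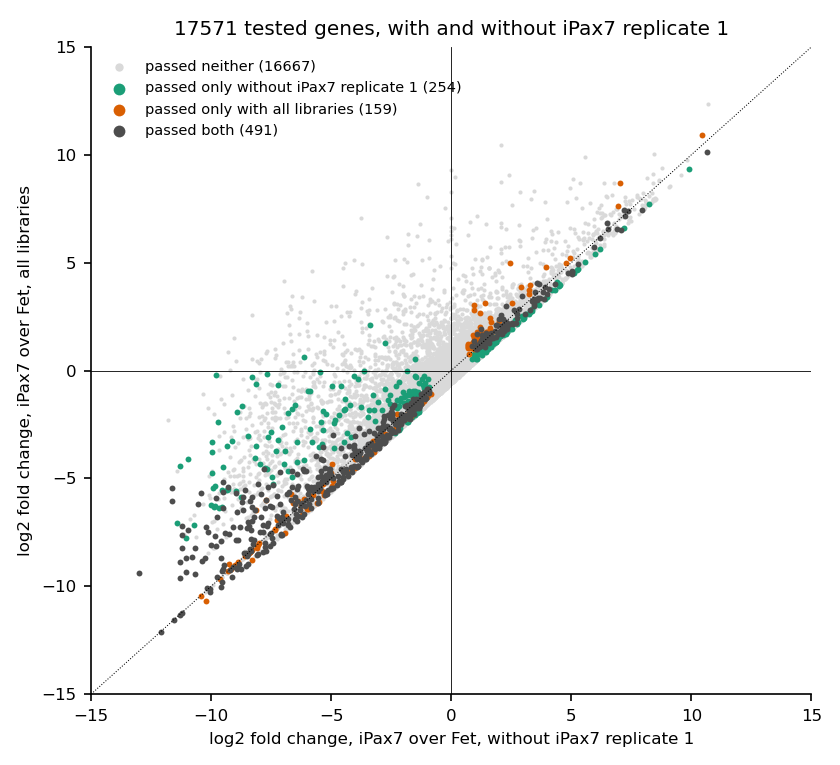
Log2 fold change of iPax7 over Fet for 17571 genes, without the library labelled iPax7 replicate 1 on the horizontal axis and with all libraries on the vertical axis. The 491 genes that passed both fits lie in the lower left and upper right of the plot.

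Among the regulators of myogenesis, iPax7 replicates 2 and 3 carried more of the early factor Myf5 than fetal cells, overlapping ranges of Myod1 and Myog, and less of several upstream homeobox factors. Of 29 tested myogenic regulators, 0 were higher and 4 lower with all libraries, and 3 were higher with 4 lower without the library labelled iPax7 replicate 1, with median log2 changes of -0.28 and 0.07 beside 0.15 and 0.02 over all genes. Myf5, the first bHLH factor of the lineage, stood at 1.10, 83.2 and 87.9 CPM in iPax7 replicates 1 to 3, against 10.4, 9.81 and 7.91 CPM in Fet. The other iPax7 libraries lay far above Fet and the library labelled iPax7 replicate 1 far below it. Its change was 3.22 ± 0.53 without that library (adjusted p = 0.0017) and 2.64 ± 0.98 with it (adjusted p = 0.16). Fet cells came from a strain read as carrying Cre driven from Myf5, and whether this altered their Myf5 counts was not tested. Met, a marker of satellite cells and the receptor through which migrating muscle precursors sense hepatocyte growth factor, showed the same order of libraries. It stood at 14.51, 285 and 160 CPM in iPax7 and 51.9, 39.1 and 32.8 CPM in Fet (2.46 ± 0.33 without the library labelled iPax7 replicate 1, adjusted p = 0.00027; 1.92 ± 0.63 with it, adjusted p = 0.11). Both calls without it held when any 1 further library was left out. The other 2 regulators that passed without it were Eya4, a transcriptional cofactor, and Chrng, the fetal subunit of the acetylcholine receptor (2.27 ± 0.52 and 3.36 ± 0.77, adjusted p = 0.017 and 0.024). Eya4 was lost when any 1 further library was left out and Chrng in all but the fit without Fet replicate 1 (up to 0.23 and 0.31).

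Pax7 gives the group its name, so its difference is no independent finding, and its counts do not separate an introduced copy from the cell's own gene. It did not pass with all libraries (1.83 ± 1.10, adjusted p = 0.45) or without the library labelled iPax7 replicate 1 (2.41 ± 0.66, adjusted p = 0.050, just above the threshold). Myod1, the determination factor, stood at 0.0366, 27.1 and 43.9 CPM in iPax7, against 84.7, 31.7 and 30.0 CPM in Fet. Myog, the differentiation factor, stood at 1.58, 563 and 517 CPM in iPax7, against 623, 310 and 387 CPM in Fet. The ranges of iPax7 replicates 2 and 3 and of Fet overlapped for both genes, and neither passed (log2 change -0.44 ± 1.07 and 0.30 ± 0.65 without the library labelled iPax7 replicate 1, adjusted p = 0.94 and 0.93). Pax3, the embryonic paralog of Pax7, was low in both groups, at 1.10, 3.75 and 2.05 CPM in iPax7 and 1.73, 6.70 and 6.27 CPM in Fet.

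Meox2, a homeobox factor of somites and limb muscle, was nearly missing from iPax7, at 0.550, 0.0338 and 0 CPM, against 45.0, 67.6 and 72.2 CPM in Fet. It fell in both fits (-8.21 ± 1.11, adjusted p = 0.00027; -11.20 ± 1.15 without the library labelled iPax7 replicate 1, adjusted p = 2.1e-05) and in every fit that left out a further library. Lbx1, a factor of migrating limb muscle precursors, stood at 0.183, 0 and 0 CPM in iPax7 and 22.5, 11.5 and 8.77 CPM in Fet, and also fell (adjusted p = 0.020 and 0.015). Nfib, of the nuclear factor I family, stood at 13.0, 33.9 and 74.1 CPM in iPax7 and 752, 516 and 642 CPM in Fet. All 3 iPax7 libraries lay below all 3 Fet libraries for each of these genes. The change of Nfib was -3.98 ± 0.69 with all libraries (adjusted p = 0.0032) and -3.56 ± 0.71 without the library labelled iPax7 replicate 1 (adjusted p = 0.0094), and Nfia fell as well (-3.37 ± 0.88 and -2.81 ± 0.60, adjusted p = 0.047 and 0.012). Of the 4 nuclear factor I genes these 2 passed in both fits, and Nfic and Nfix passed in neither. The fitted changes of all 4 were negative. Without the library labelled iPax7 replicate 1, leaving out iPax7 replicate 2 or 3 as well raised the adjusted p of Lbx1, Nfia and Nfib to at most 0.19, 0.21 and 0.17. With all libraries Lbx1 was lost without Fet replicate 1, iPax7 replicate 2 or 3 (at most 0.080) and Nfia without any library other than iPax7 replicate 1 (at most 0.13).

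Genes of the contractile apparatus lay mostly higher in iPax7 replicates 2 and 3 than in fetal cells, and low in the library labelled iPax7 replicate 1. Of 56 tested contractile genes, 41 lay above all Fet libraries in both of these iPax7 libraries and 4 below (27.9% and 20.8% of all genes did so), but 0 passed with all libraries and 5 without the library labelled iPax7 replicate 1, all higher. The median log2 change was 1.61 with all libraries and 1.97 without it. The fit of these 5 libraries alone called 39 higher and 2 lower. Tpm1, an alpha tropomyosin that runs along the actin filament, stood at 591, 2210 and 1870 CPM in iPax7, against 541, 557 and 679 CPM in Fet. It rose without the library labelled iPax7 replicate 1 (1.78 ± 0.28, adjusted p = 0.0011) and held there when any 1 further library was left out, but did not pass with all libraries (1.39 ± 0.38, adjusted p = 0.052). Tnnt3, the fast skeletal troponin T, stood at 1.43, 202 and 185 CPM in iPax7 and 8.65, 9.17 and 8.13 CPM in Fet (4.48 ± 1.08, adjusted p = 0.031; 3.90 ± 1.41 with all libraries, adjusted p = 0.15).

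The other 3 that passed were Mylpf, the fast regulatory myosin light chain, Tpm2, a beta tropomyosin, and Jph2, which joins the cell membrane to the calcium store. Mylpf stood at 31.1, 183 and 272 CPM in iPax7 and 31.1, 15.4 and 21.9 CPM in Fet (3.37 ± 0.84, adjusted p = 0.031). Jph2 stood at 9.60, 118 and 115 CPM in iPax7 and 17.3, 4.87 and 5.204 CPM in Fet (3.90 ± 0.87, adjusted p = 0.016). The calls of Tnnt3, Mylpf and Tpm2 were each lost when any 1 further library was left out (adjusted p up to 0.14, 0.22 and 0.24), and that of Jph2 in all but the fit without Fet replicate 1 (up to 0.11). Some sarcomere genes did not follow. Actc1, the actin of heart and embryonic muscle, stood at 5.46, 193 and 184 CPM in iPax7 and 258, 272 and 225 CPM in Fet. Myh8, the perinatal myosin heavy chain, stood at 0.256, 48.9 and 43.4 CPM in iPax7 and 67.4, 78.0 and 77.7 CPM in Fet. Myh3, the embryonic myosin heavy chain, stood at 9.01, 812 and 1060 CPM in iPax7 and 138, 234 and 187 CPM in Fet, and did not pass (2.32 ± 0.85 without the library labelled iPax7 replicate 1, adjusted p = 0.17).

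The Mylpf promoter is shown because muscle bHLH factors bind E-box letters such as CAGCTG, in capitals, which begin 51 bases before the RefSeq start. The 250 bases before that start are chr7:127211358-127211607 on the plus strand of GRCm38.p6.
Mylpf: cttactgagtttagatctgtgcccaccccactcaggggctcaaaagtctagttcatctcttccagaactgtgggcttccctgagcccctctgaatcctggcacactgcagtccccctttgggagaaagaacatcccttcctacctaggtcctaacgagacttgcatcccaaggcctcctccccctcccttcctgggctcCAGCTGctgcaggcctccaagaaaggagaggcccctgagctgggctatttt
CAGCTG, searched on both strands, stood in 19 of the 54 windows of the 42 contractile genes that matched RefSeq (35.2%), against 13.0% of all 32851 windows of that length. These letters are a description of sequence, not evidence of binding.

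Some inhibitors of cyclin-dependent kinases and several targets of p53 were higher in iPax7. Of 18 tested members 9 passed in each fit, all higher, with median log2 changes of 2.44 and 2.28. Cdkn2a, which encodes the senescence proteins p16 and p19Arf, stood at 13.8, 99.3 and 121 CPM in iPax7. It was nearly absent from Fet, at 0, 0.670 and 0.214 CPM. Every iPax7 library exceeded every Fet library, and the change was 7.45 ± 1.11 with all libraries (adjusted p = 0.0010) and 7.93 ± 0.91 without the library labelled iPax7 replicate 1 (adjusted p = 0.00012). In the other bulk groups Cdkn2a averaged 101 CPM in iPax3, 0.0736 CPM in Emb and 0 CPM in Neo. Cdkn1a, the p21 inhibitor and a direct p53 target, stood at 68.7, 235 and 158 CPM in iPax7 and 32.9, 11.9 and 15.3 CPM in Fet (3.07 ± 0.58, adjusted p = 0.0050; 3.45 ± 0.55, adjusted p = 0.0012).

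Trp53inp1, a stress protein induced by p53, stood at 537, 468 and 293 CPM in iPax7 and 89.9, 51.0 and 50.3 CPM in Fet (2.79 ± 0.38, adjusted p = 0.00028; 2.62 ± 0.38, adjusted p = 0.00057). Aen, a p53-induced nuclease, rose too (2.09 ± 0.33 and 1.84 ± 0.33, adjusted p = 0.0012 and 0.0029). These 4 calls held in all 11 fits that left out 1 further library. Of these 11, here and below, 1 is the second fit itself. The other 5 were Cdkn2b, Ccng1, Mdm2, Eda2r and Phlda3. Of these Mdm2, the ubiquitin ligase of p53, stood at 294, 264 and 181 CPM in iPax7 and 83.0, 85.8 and 101 CPM in Fet (1.45 ± 0.27, adjusted p = 0.0047; 1.30 ± 0.27, adjusted p = 0.0099). It was lost when iPax7 replicate 2 was left out together with replicate 1 (adjusted p = 0.22). Ccng1, a p53-induced cyclin, stood at 433, 635 and 508 CPM in iPax7 and 46.7, 52.6 and 57.9 CPM in Fet. All 3 iPax7 libraries lay far above (adjusted p = 0.011 and 0.015). It was lost with all libraries but any 1 Fet library (up to 0.061) and, without the library labelled iPax7 replicate 1, in every further fit (up to 0.12).

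Not all inhibitors moved: of the 7 kinase inhibitors tested, 3 passed. Cdkn1b, which encodes p27, stood at 115, 67.7 and 86.3 CPM in iPax7 and 100, 77.8 and 89.0 CPM in Fet. Cdkn1c, which encodes p57, stood at 11.1, 662 and 421 CPM in iPax7 and 738, 943 and 811 CPM in Fet, below all Fet libraries, and did not pass (adjusted p = 0.61 and 0.81).

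Genes of the cell cycle held few calls. Of 43 tested, 1 was higher with all libraries and 0 without the library labelled iPax7 replicate 1, with 0 lower in either fit. Their median changes were 0.58 and 0.12. The fit of iPax7 replicates 2 and 3 with Fet alone called 8 higher and 1 lower, beside 10.4% and 14.6% of all genes. Mki67, a protein of dividing nuclei, stood at 368, 303 and 570 CPM in iPax7 and 330, 830 and 637 CPM in Fet, with overlapping ranges. In simulated counts the same tests recovered 12% of 100 genes changed 4-fold, with all libraries and also without the library labelled iPax7 replicate 1. Of 100 genes changed 16-fold they recovered 49% and 47%. The simulated spread came from the fit with all libraries in both cases and was the same in every library. Apart from the changed genes, each gene had a single mean over all groups. The values therefore do not measure what either real fit can recover.

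A few epithelial and mesothelial genes were among the largest increases that passed both fits. The ranking took genes that passed both fits, with no overlap between iPax7 and Fet libraries and a group mean of at least 20 CPM. Of the 10 largest increases so ranked, 4 belonged to the list of 16 tested epithelial and mesothelial genes. In that list 4 were higher and 0 lower in each fit. The other 12 did not pass, and the list's median change was 4.51 with all libraries and 0.28 without the library labelled iPax7 replicate 1. Krt8, a keratin of simple epithelia, stood at 73.4, 162 and 95.2 CPM in iPax7 and 1.73, 2.22 and 1.92 CPM in Fet (5.75 ± 0.64, adjusted p = 5.6e-05; 5.96 ± 0.62, adjusted p = 2.5e-05). Dsp, which links desmosomes to keratin, stood at 73.0, 216 and 264 CPM in iPax7 and 5.19, 5.54 and 6.99 CPM in Fet (4.92 ± 0.62, adjusted p = 0.00016; 5.29 ± 0.54, adjusted p = 2.1e-05). Msln, a mesothelial surface protein, stood at 6.08, 89.5 and 143 CPM in iPax7 and 0, 0.822 and 0.998 CPM in Fet, with the library labelled iPax7 replicate 1 nearest to Fet (6.54 ± 0.99 and 7.07 ± 0.62, adjusted p = 0.00077 and 5.0e-06). The fourth, Pkp2, a desmosome protein, was lost with all libraries but Fet replicate 2 (adjusted p = 0.069) and, without the library labelled iPax7 replicate 1, without Fet replicate 2 or 3 or iPax7 replicate 2 (up to 0.13). Mt2, a metal-binding stress protein, stood at 144, 52.6 and 108 CPM in iPax7 and 1.73, 0.762 and 0.856 CPM in Fet (6.84 ± 0.99, adjusted p = 0.00051; 6.49 ± 1.04, adjusted p = 0.0013). S100a6 and Perp also rose by over 4 log2 units in both fits and held in all 11 further fits.

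**Figure D3:**
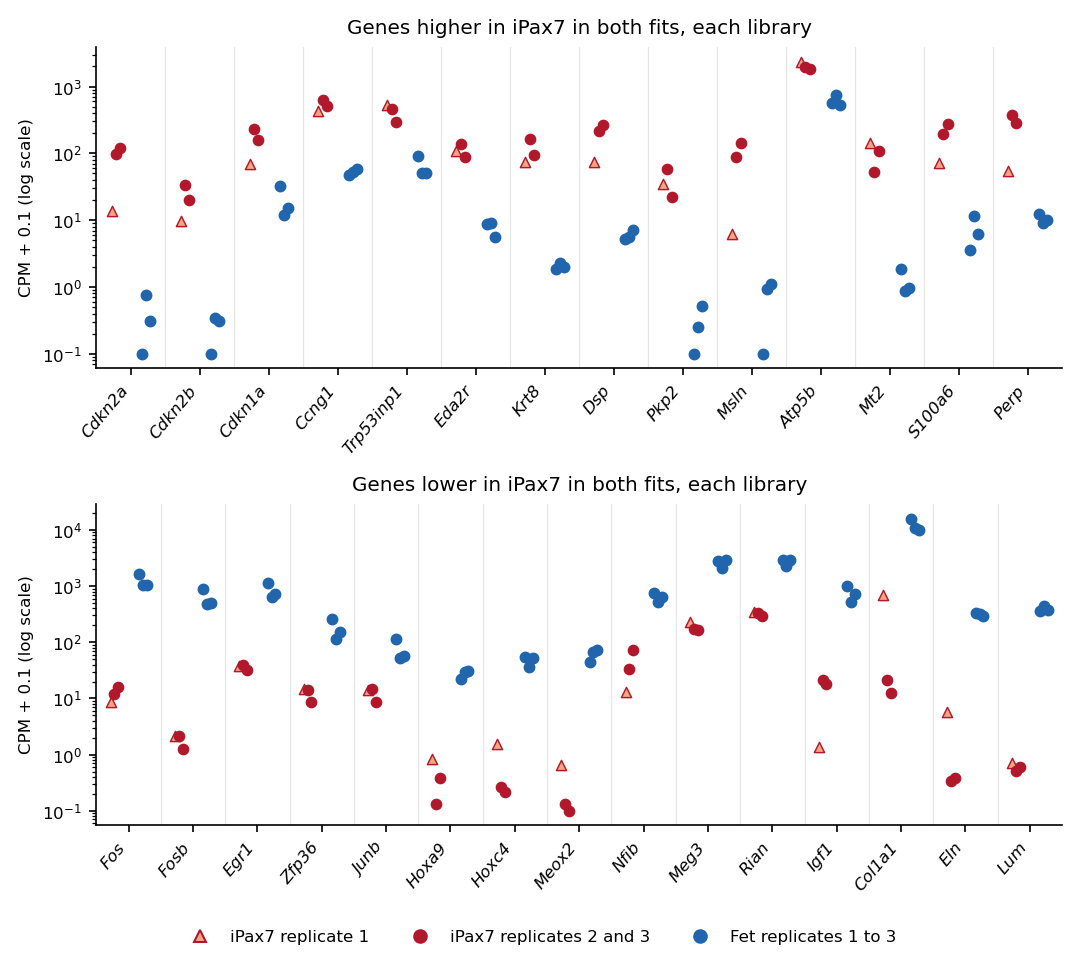
CPM plus 0.1, on a log axis, of 14 genes higher (top) and 15 genes lower (bottom) in iPax7 that passed with and without the library labelled iPax7 replicate 1, with iPax7 left of Fet for every gene. All 3 iPax7 libraries lie on one side of all 3 Fet libraries for each gene shown.

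Many extracellular matrix genes were lower in iPax7. Of 53 tested, 22 were lower and 0 higher with all libraries, and 23 were lower beside 1 higher without the library labelled iPax7 replicate 1, with median changes of -1.79 and -1.35. Without Fet replicate 1 as well, 21 were lower. All 7 fibrillar collagens fell with all libraries and 6 without the library labelled iPax7 replicate 1. Col1a1, the main chain of bone and tendon collagen, stood at 708, 21.5 and 12.3 CPM in iPax7, against 15900, 10700 and 10000 CPM in Fet. The library labelled iPax7 replicate 1 was the highest of its group and still far below Fet (-5.63 ± 1.28, adjusted p = 0.023; -9.49 ± 0.86 without it, adjusted p = 1.5e-05). With all libraries but iPax7 replicate 2 the gene did not pass (-5.08, adjusted p = 0.064). Col1a2, its partner chain, stood at 655, 907 and 394 CPM in iPax7 and 8930, 9600 and 8910 CPM in Fet (-3.81 ± 0.51, adjusted p = 0.00027; -3.81 ± 0.64, adjusted p = 0.0027). It was lost when iPax7 replicate 3 was left out together with replicate 1 (adjusted p = 0.062).

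Col6a1, Col6a2 and Col6a3, the chains of the microfibrillar collagen around muscle fibres, fell together. Col6a3 stood at 29.1, 2.26 and 10.6 CPM in iPax7 and 1140, 1210 and 1070 CPM in Fet (-6.35 ± 0.72, adjusted p = 8.3e-05; -7.48 ± 0.68, adjusted p = 8.2e-06). Lum, a small proteoglycan that spaces collagen fibrils, stood at 0.623, 0.405 and 0.512 CPM in iPax7 and 363, 443 and 381 CPM in Fet (-9.58 ± 0.50, adjusted p = 1.6e-08; -9.76 ± 0.59, adjusted p = 9.6e-08). Eln, elastin, stood at 5.61, 0.236 and 0.285 CPM in iPax7 and 334, 316 and 295 CPM in Fet (-7.24 ± 0.93, adjusted p = 0.00027; -10.23 ± 0.38, adjusted p = 1.7e-10). These calls held in all 11 further fits. Not all matrix fell: Fn1, fibronectin, stood at 948, 1010 and 599 CPM in iPax7 and 1200, 1200 and 1000 CPM in Fet and did not pass (adjusted p = 0.62 in both fits). Col4a5, a basement membrane collagen, was the 1 member higher without the library labelled iPax7 replicate 1 (2.21 ± 0.60, adjusted p = 0.048). Its call was lost when any 1 further library was left out (up to 0.25).

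Markers of other cells of the fetus moved the same way, and whether Fet held such cells or its myoblasts expressed these genes was not tested. In bulk RNA, fewer cells of a type and less of its RNA per cell cannot be told apart. Of 19 tested tendon and cartilage markers 15 were lower in each fit. The summed level of all 20 listed was 142, 149 and 170 CPM in iPax7, against 6842, 4296 and 3970 CPM in Fet. Col2a1, the collagen of cartilage, stood at 25.0, 8.17 and 9.68 CPM in iPax7 and 3120, 1590 and 1380 CPM in Fet (-7.15 ± 0.55, adjusted p = 1.1e-06; -7.83 ± 0.54, adjusted p = 3.8e-07). Sox9, the regulator of chondrocytes, fell with it (-4.42 ± 0.68 and -3.90 ± 0.52, adjusted p = 0.00080 and 0.00025). Cnmd, which keeps vessels out of cartilage and tendon, and Hapln1, a link protein of the cartilage matrix, were among the 10 largest decreases ranked likewise. Scx, the tendon factor, did not follow, at 1.06, 22.6 and 12.9 CPM in iPax7 and 6.92, 5.94 and 4.63 CPM in Fet.

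Of 22 fibroblast and muscle connective tissue markers 12 were lower in each fit, with a summed level of 327, 1734 and 1473 CPM in iPax7 and 13880, 17680 and 16650 CPM in Fet. Pdgfra, the receptor that defines these cells, stood at 6.30, 0.946 and 1.20 CPM in iPax7 and 277, 338 and 333 CPM in Fet (-6.80 ± 0.67, adjusted p = 1.5e-05; -8.21 ± 0.51, adjusted p = 1.1e-07). Dpt, a dermal matrix protein, was at 0.101 CPM or less in every iPax7 library and at 65.7, 104 and 114 CPM in Fet. Tcf7l2, a Wnt effector of muscle connective tissue, did not pass, at 7.51, 63.0 and 52.5 CPM in iPax7 and 83.0, 55.2 and 59.2 CPM in Fet.

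Endothelial markers were lower for 7 of 18 tested with all libraries and for 13 without the library labelled iPax7 replicate 1, and their sum was 178, 27.1 and 45.6 CPM in iPax7, against 342, 565 and 732 CPM in Fet. The median change was -4.94 and -8.24, or -6.82 with the 5 members at 0 counts in iPax7 replicates 2 and 3 set at their counting bound. Emcn, endomucin, had 0 counts in every iPax7 library and 19.02, 22.5 and 33.7 CPM in Fet. It was at least 622.9-fold lower, counting 0 as 3 counts summed over iPax7. Cdh5, the cadherin of endothelial junctions, stood at 0.0733, 0.0676 and 0.285 CPM in iPax7 and 29.4, 91.2 and 111 CPM in Fet (-9.22 ± 0.99, adjusted p = 5.4e-05; -8.94 ± 1.19, adjusted p = 0.00044). Kdr, which encodes Flk1, fell in both fits (adjusted p = 0.011 and 0.018). Whether it was low because iPax7 cells had been sorted as Flk1- before replating was not tested. It was lost without iPax7 replicate 2 or 3 (up to 0.060 with all others and 0.28 without the library labelled iPax7 replicate 1). Pecam1 stood at 100, 0.743 and 1.48 CPM in iPax7 and 32.9, 64.8 and 98.6 CPM in Fet. Its call turned on the library labelled iPax7 replicate 1 (adjusted p = 0.79 with it and 0.0036 without, the second lost without iPax7 replicate 2 or 3, up to 0.11).

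Immune markers were lower for 5 of 21 tested with all libraries and 7 without the library labelled iPax7 replicate 1. All 22 listed summed to 51.4, 7.63 and 3.19 CPM in iPax7 and 138, 246 and 163 CPM in Fet. Ptprc, the CD45 antigen of all leukocytes, had 0 counts in each iPax7 library, at least 423.7-fold lower than in Fet. Of 19 neural and Schwann markers 2 were lower with all libraries, and 3 were lower beside 1 higher, Nes, when the library labelled iPax7 replicate 1 was left out. Their median changes were -1.11 and -3.71, and 15 and 17 of the 19 fitted changes were negative. The sums over all 21 listed went the other way, at 1075, 879 and 876 CPM in iPax7 and 598, 786 and 776 CPM in Fet. Nes, an intermediate filament protein that muscle progenitors also make, held 53.9, 645 and 510 CPM of these sums in iPax7 and 194, 345 and 287 CPM in Fet. Its call (1.06 ± 0.27, adjusted p = 0.033) was lost in 4 of 5 further fits (up to 0.35). Of 13 pericyte and smooth muscle markers 4 were lower in each fit, with median changes of -1.72 and -2.31. In iPax7 replicates 2 and 3, 8 lay below every Fet library and 3 above, beside 20.8% and 27.9% of all genes. Their sums overlapped, at 626, 1230 and 1043 CPM in iPax7 and 832, 763 and 672 CPM in Fet. Among the pericyte markers Rgs5, a pericyte gene, fell (-6.48 ± 1.04 and -6.30 ± 1.26, adjusted p = 0.0017 and 0.011), and Acta2, smooth muscle actin, which cultured myoblasts also express, was higher without the library labelled iPax7 replicate 1 (2.96 ± 0.78, adjusted p = 0.048). Without that library Rgs5 was lost without iPax7 replicate 2 or 3 (up to 0.19) and Acta2 in every further fit (up to 0.24).

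**Figure D4:**
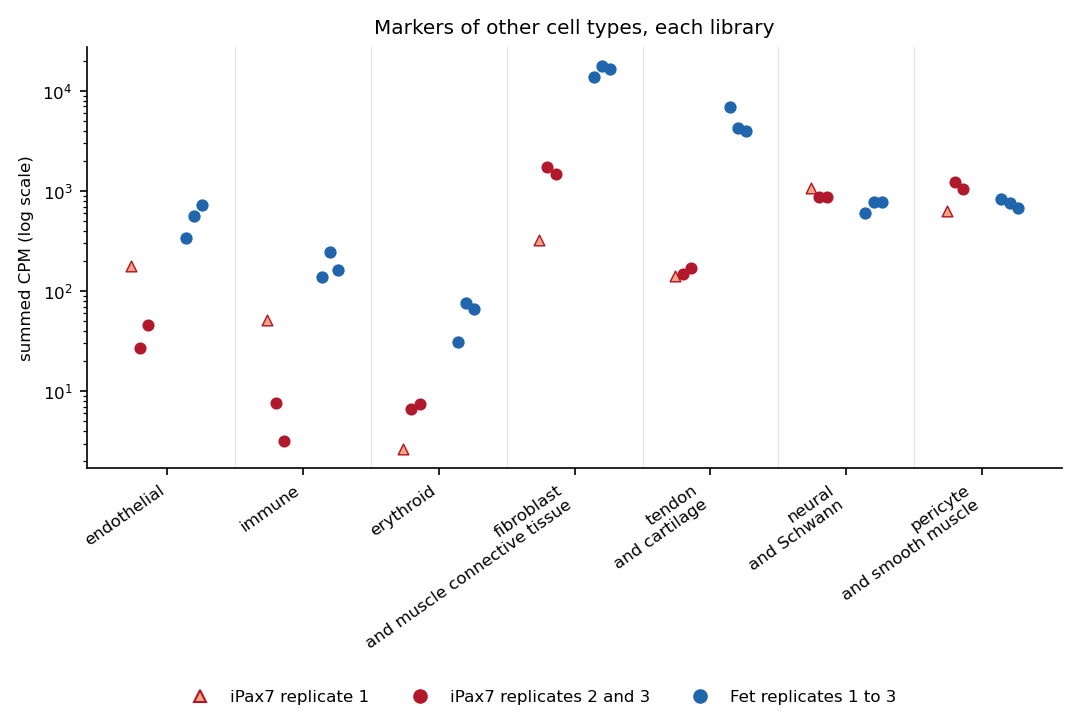
Summed CPM of the listed markers of 7 other cell types, tested or not, in each library, on a log axis, with iPax7 left of Fet. Endothelial, immune, erythroid, fibroblast and tendon and cartilage markers lie lower in all 3 iPax7 libraries than in all 3 Fet libraries, while the sums of neural markers lie slightly higher and those of pericyte markers overlap, although most members of both lists had negative fitted changes.

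Most Hox genes, which encode position along the body, were lower in iPax7 than in Fet, though most single genes did not pass. Of 37 tested, 9 were lower with all libraries and 10 without the library labelled iPax7 replicate 1, with 0 higher in either, and 28 lay below every Fet library in both iPax7 replicates 2 and 3, beside 20.8% of all genes. The median change was -5.26 with all libraries and -7.63 without that library, or -5.64 with the 10 members at 0 counts in replicates 2 and 3 set at their counting bound. The fit of these 5 libraries alone called 32 lower and 0 higher. The clearest exception was Hoxb9, at 1.69, 7.26 and 17.6 CPM in iPax7 and 3.46, 9.75 and 15.8 CPM in Fet, with overlapping ranges. Hoxa9, a posterior gene of trunk and limb, stood at 0.733, 0.0338 and 0.285 CPM in iPax7 and 22.5, 29.0 and 30.6 CPM in Fet (-6.28 ± 0.73, adjusted p = 7.2e-05; -7.55 ± 0.74, adjusted p = 1.4e-05). Hoxc4, a cervical gene, stood at 1.47, 0.169 and 0.114 CPM in iPax7 and 55.3, 35.6 and 52.2 CPM in Fet (-6.31 ± 0.86, adjusted p = 0.00028; -8.30 ± 0.76, adjusted p = 8.0e-06).

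Hoxc8, Hoxa7 and Hoxa10 fell likewise, and the 5 calls held in all 11 further fits. The passing genes stood in all 4 clusters, with 4 of 11 tested in A, 1 of 8 in B, 3 of 9 in C and 2 of 9 in D without the library labelled iPax7 replicate 1. Hoxa9 averaged 0.211 CPM in iPax3, 124 CPM in Emb and 63.9 CPM in Neo. Among 17 limb and regional factors 4 were lower with all libraries and 3 without the library labelled iPax7 replicate 1. Shox2, a limb skeletal factor among them, stood at 1.14, 0.338 and 0.797 CPM in iPax7 and 15.6, 42.9 and 37.1 CPM in Fet (-5.41 ± 0.73, adjusted p = 0.00026; -5.85 ± 0.84, adjusted p = 0.00046).

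Immediate early genes, which serum, stress and tissue dissociation switch on within minutes, were lower in iPax7 for part of the list. Of 28 tested, 11 were lower with all libraries and 14 without the library labelled iPax7 replicate 1, with 0 higher, and the median changes were -1.49 and -2.37. AP-1 subunits held 6 of these calls in each fit, of 8 tested, and signalling members 1 and 3 of 11. Fos, a subunit of the AP-1 factor, stood at 8.54, 12.1 and 15.9 CPM in iPax7, against 1620, 1060 and 1050 CPM in Fet. The groups were separated by more than the whole spread within either (-6.67 ± 0.57, adjusted p = 3.7e-06; -6.47 ± 0.68, adjusted p = 3.7e-05). Fosb, its paralog, stood at 2.05, 2.06 and 1.14 CPM in iPax7 and 873, 488 and 499 CPM in Fet (-8.45 ± 0.58, adjusted p = 5.8e-07; -8.57 ± 0.69, adjusted p = 2.1e-06). Egr1, a zinc finger factor, stood at 37.4, 38.5 and 31.4 CPM in iPax7 and 1150, 633 and 724 CPM in Fet (-4.54 ± 0.53, adjusted p = 8.3e-05; -4.58 ± 0.66, adjusted p = 0.00075).

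Zfp36, which destabilises mRNAs of early genes, fell by 3.79 and 3.93 log2 units (adjusted p = 1.2e-05 and 3.1e-05), and these 4 calls held in all 11 further fits. Junb stood at 14.2, 14.46 and 8.42 CPM in iPax7 and 116, 52.5 and 56.1 CPM in Fet (-2.56 ± 0.40, adjusted p = 0.0011; -2.66 ± 0.46, adjusted p = 0.0024). With Jun it was lost when iPax7 replicate 3 was left out together with replicate 1 (adjusted p = 0.065 and 0.094). The group means of Fos were 15.6 CPM in iPax3, 96.1 CPM in Emb and 5860 CPM in Neo. Per the labels, tissue cells were freshly sorted and iPax7 cells came from culture. Handling and group cannot be told apart for these genes, as for all others compared here. Fosl1, an AP-1 subunit, lay higher in iPax7, at 2.60, 6.99 and 2.96 CPM against 0, 0.305 and 0.499 CPM in Fet, and did not pass (adjusted p = 0.33 and 0.34). Klf4, Klf2 and Socs3 differed from this pattern, because the library labelled iPax7 replicate 1 lay near, within or above the Fet range. Klf4, which serves in both the early response and the pluripotent state, stood at 105, 8.71 and 4.04 CPM in iPax7 and 131, 107 and 118 CPM in Fet (adjusted p = 0.42 with all libraries and 0.0031 without that one, the second lost without iPax7 replicate 3, 0.078).

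Promoters of 3 AP-1 genes that moved together are shown as the 250 bases before the RefSeq start on GRCm38.p6, with TGACG, the core of the cAMP response element, in capitals. They are chr12:85473640-85473889 on the plus strand for Fos, and chr7:19310046-19310295 for Fosb and chr8:84978749-84978998 for Junb on the minus strand.
Fos: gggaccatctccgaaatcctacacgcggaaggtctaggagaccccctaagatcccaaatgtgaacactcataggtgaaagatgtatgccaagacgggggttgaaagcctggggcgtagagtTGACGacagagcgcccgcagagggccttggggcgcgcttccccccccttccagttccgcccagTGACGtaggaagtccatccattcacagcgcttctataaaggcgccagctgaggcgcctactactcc
Fosb: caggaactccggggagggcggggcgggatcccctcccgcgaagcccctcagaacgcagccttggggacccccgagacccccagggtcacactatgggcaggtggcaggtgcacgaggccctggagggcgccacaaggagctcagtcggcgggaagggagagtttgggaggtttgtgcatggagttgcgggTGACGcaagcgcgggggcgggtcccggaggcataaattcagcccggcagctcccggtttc
Junb: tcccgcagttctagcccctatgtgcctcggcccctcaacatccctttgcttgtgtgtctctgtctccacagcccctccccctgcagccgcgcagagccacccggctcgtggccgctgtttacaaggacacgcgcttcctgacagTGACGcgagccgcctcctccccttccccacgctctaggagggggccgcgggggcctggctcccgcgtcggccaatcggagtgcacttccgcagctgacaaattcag
The matches begin 129 and 66 bases before the start in Fos, 60 in Fosb and 106 in Junb. TGACG on either strand stood in 15 of the 27 windows of the 23 immediate early genes that matched RefSeq (55.6%), against 17.8% of all 32851 windows. The CArG box, CC and GG around a run of A or T, was also searched. It stood in 5 of these 27 windows (18.5%) and 8 of the 54 contractile windows (14.8%), against 1.47% of all windows. Here too the letters are a description of sequence, not evidence of binding.

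Imprinted genes, expressed from one parental copy, were mostly lower in iPax7. Of 30 tested, 8 were lower and 0 higher with all libraries, and 10 lower beside 2 higher without the library labelled iPax7 replicate 1. At the Dlk1-Dio3 locus on chromosome 12, 4 of 6 tested genes fell in each fit. Meg3, its maternally expressed noncoding RNA, stood at 233, 175 and 168 CPM in iPax7, against 2830, 2070 and 2920 CPM in Fet, with the iPax7 libraries close together and far below (-3.76 ± 0.27, adjusted p = 5.8e-07; -3.92 ± 0.29, adjusted p = 8.7e-07). Rian, the noncoding RNA downstream of it, stood at 346, 330 and 295 CPM in iPax7 and 2880, 2280 and 2890 CPM in Fet (-3.05 ± 0.32, adjusted p = 2.5e-05; -3.10 ± 0.37, adjusted p = 8.2e-05). Dlk1, the paternally expressed Notch-like protein of the locus and a regulator of muscle growth, stood at 4.40, 15.5 and 22.99 CPM in iPax7 and 839, 671 and 639 CPM in Fet (-5.65 ± 0.83, adjusted p = 0.00077; -5.22 ± 0.88, adjusted p = 0.0030). It was lost when iPax7 replicate 2 or 3 was left out together with replicate 1 (up to 0.088).

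Elsewhere Magel2, of the locus of Prader-Willi syndrome, stood at 0.183, 0 and 0.0569 CPM in iPax7 and 46.7, 26.6 and 33.6 CPM in Fet. Gnas, a G protein subunit, stood at 9.23, 6.52 and 17.4 CPM in iPax7 and 109, 124 and 126 CPM in Fet. Both passed in both fits and in all 11 further fits. Peg10, a retrotransposon-derived gene, went the other way without the library labelled iPax7 replicate 1, at 257, 3930 and 2230 CPM in iPax7 and 956, 710 and 866 CPM in Fet (1.87 ± 0.35, adjusted p = 0.0043; lost without iPax7 replicate 2, adjusted p = 0.12). H19 spread widely within iPax7, at 226, 40.0 and 1450 CPM, against 4390, 5240 and 5360 CPM in Fet, and did not pass (adjusted p = 0.16 and 0.35). Igf2, the growth factor beside it, stood at 159, 3720 and 2120 CPM in iPax7 and 3420, 3320 and 3780 CPM in Fet.

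Among signalling pathways, secreted Wnt inhibitors and insulin-like growth factor 1 were lower in iPax7. Of 34 tested Wnt pathway genes 6 were lower with all libraries and 7 without the library labelled iPax7 replicate 1, and all were receptors or inhibitors. Dkk2, an antagonist of the Wnt coreceptors, stood at 1.91, 0.473 and 0.341 CPM in iPax7 and 83.0, 109 and 112 CPM in Fet (-6.79 ± 0.82, adjusted p = 9.5e-05; -7.93 ± 0.85, adjusted p = 3.1e-05). Wif1 and Sfrp2, which bind Wnt proteins, also fell in both fits (adjusted p = 0.00027 and 0.0057 with all libraries, 0.0014 and 0.0012 without the library labelled iPax7 replicate 1). The receptors Ror1 and Ror2 fell too, and were lost when iPax7 replicate 3 or 2 was left out together with replicate 1 (adjusted p = 0.090 and 0.093). None of the 7 tested Wnt target genes passed, Axin2 among them, at 6.23, 1.93 and 2.16 CPM in iPax7 and 19.02, 27.1 and 19.3 CPM in Fet (-2.67 ± 1.13 and -3.42 ± 1.34, adjusted p = 0.22 and 0.20).

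Of 28 FGF and IGF pathway genes 9 were lower with all libraries and 8 without the library labelled iPax7 replicate 1. Igf1, a growth factor of muscle, stood at 1.25, 21.3 and 18.3 CPM in iPax7 and 999, 519 and 729 CPM in Fet (-5.78 ± 0.85, adjusted p = 0.00082; -5.24 ± 0.60, adjusted p = 6.0e-05). The iPax7 cultures received bFGF, and of 7 tested feedback inhibitors and targets of FGF signalling 0 were higher, with 4 lower in the first fit and 3 in the second. Spry4, one of them, stood at 18.8, 9.86 and 3.24 CPM in iPax7 and 135, 42.8 and 69.2 CPM in Fet (-2.93 ± 0.68, adjusted p = 0.022; -3.62 ± 0.76, adjusted p = 0.011). This call was lost in 3 of 6 fits that left out 1 library (up to 0.11, without Fet replicate 1) and, without the library labelled iPax7 replicate 1, without iPax7 replicate 3 (0.17). In the Notch pathway the ligand Jag1 was the only 1 of 19 to pass (-3.05 ± 0.65 and -4.02 ± 0.66, adjusted p = 0.012 and 0.0017), and it was lost without Fet replicate 1 or iPax7 replicate 2 (up to 0.057). Of 33 BMP and TGF-beta genes 3 were lower in each fit, among them the coreceptor Tgfbr3. Tgfbr3 was lost when iPax7 replicate 2 was left out with replicate 1 (adjusted p = 0.25). A single member was higher without the library labelled iPax7 replicate 1, the BMP target Id3 (1.64 ± 0.43, adjusted p = 0.039; 0.38 with all libraries; lost in 4 of 5 further fits, up to 0.25).

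Nuclear genes of oxidative phosphorylation lay higher in iPax7. All 23 tested lay above every Fet library in iPax7 replicates 2 and 3, beside 27.9% of all genes, with median changes of 1.15 and 1.13. Of them 7 passed with all libraries and 5 without the library labelled iPax7 replicate 1. Atp5b, the catalytic subunit of ATP synthase, stood at 2360, 1960 and 1850 CPM in iPax7 and 564, 737 and 523 CPM in Fet (1.76 ± 0.21, adjusted p = 9.3e-05; 1.65 ± 0.21, adjusted p = 0.00014), a call that held in all 11 further fits. Of the 9 tested genes encoded in the mitochondrion 0 were higher and 3 lower with all libraries, and a single one was lower when the library labelled iPax7 replicate 1 was left out. That gene, mt-Nd1 of complex I, stood at 1040, 2130 and 1580 CPM in iPax7 and 2150, 5120 and 7100 CPM in Fet (-1.60 ± 0.35, adjusted p = 0.015; -1.37 ± 0.37, adjusted p = 0.048). It was lost in 3 of 6 and 4 of 5 fits that left out a further library (up to 0.11, without Fet replicate 3, and 0.43, without iPax7 replicate 3). Fet libraries were not alike for other mitochondrial genes, and mt-Co3 was at 2690 and 5460 CPM in Fet replicates 1 and 2 but at 5.49 CPM in replicate 3. Among 24 glycolysis genes 4 were higher with all libraries, and 3 higher with 1 lower without the library labelled iPax7 replicate 1. Pkm, pyruvate kinase, stood at 2770, 879 and 1050 CPM in iPax7 and 358, 500 and 378 CPM in Fet (1.93 ± 0.36, adjusted p = 0.0048; 1.23 ± 0.25, adjusted p = 0.0086). It was lost when Fet replicate 3 or iPax7 replicate 3 was left out with replicate 1 (up to 0.12).

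**Figure D5:**
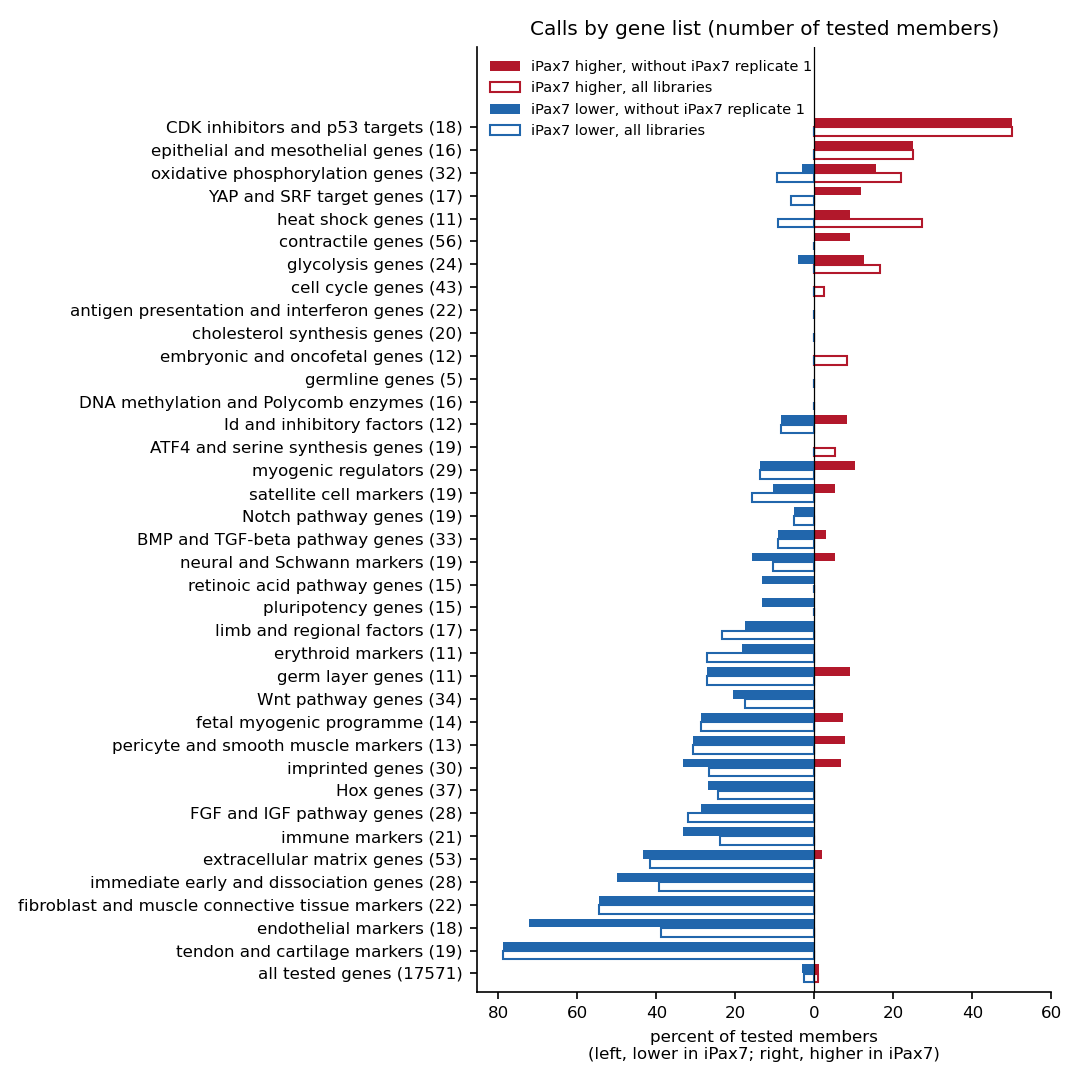
Percent of tested members that passed in each gene list, with the number of tested members in brackets, bars to the left lower and bars to the right higher in iPax7, filled without the library labelled iPax7 replicate 1 and open with all libraries. All tested genes stand at the bottom, at 2.75% and 3.04% lower and 0.950% and 1.20% higher.

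Several of the remaining lists held few calls. Others stood above the shares of all genes. Of 11 heat shock genes 3 were higher and 1 lower with all libraries, and 1 was higher without the library labelled iPax7 replicate 1. Of 11 germ layer genes 3 were lower in each fit, beside 1 higher in the second. Of 11 tested erythroid markers 3 were lower in the first fit and 2 in the second. Antigen presentation and interferon, cholesterol synthesis and DNA methylation and Polycomb genes had 0 members past the threshold in either fit. The fit of iPax7 replicates 2 and 3 with Fet alone called 6 of 16 DNA methylation and Polycomb genes lower and 0 higher. In that fit 14.6% of all genes were lower and 10.4% higher. Of the 22 antigen presentation genes it called 1 higher and 1 lower, and of the 20 cholesterol genes 1 lower. Of 19 satellite cell markers 3 were lower with all libraries, and 2 lower beside 1 higher without the library labelled iPax7 replicate 1. The lowered ones included Cd34, a surface antigen of satellite and of stromal and endothelial cells, at 1.94, 1.01 and 2.56 CPM in iPax7 and 83.0, 78.6 and 75.0 CPM in Fet (-5.43 ± 0.93, adjusted p = 0.0026; -5.48 ± 1.14, adjusted p = 0.013). It was lost when iPax7 replicate 2 or 3 was left out with replicate 1 (up to 0.21).

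The library labelled iPax7 replicate 1 set the call of genes in both directions. Kit, a receptor of germ and stem cells, stood at 105 CPM in that library, 0.0676 and 0.342 CPM in iPax7 replicates 2 and 3, and 50.2, 66.5 and 45.6 CPM in Fet. It passed only without that library (-8.11 ± 1.15, adjusted p = 0.00044; -0.63 ± 1.47 with it, adjusted p = 0.89). Dio2, which activates thyroid hormone, stood at 0.366, 166 and 180 CPM in iPax7 and 1.73, 6.73 and 3.85 CPM in Fet, and also passed only without it (5.22 ± 0.67, adjusted p = 0.00017; 4.65 ± 1.26 with it, adjusted p = 0.052). Both held there when any 1 further library was left out. In the opposite case Trim71, a stem cell RNA regulator, stood at 378, 36.45 and 11.95 CPM in iPax7 and 1.73, 4.995 and 4.99 CPM in Fet. Mycn stood at 145, 24.2 and 11.15 CPM in iPax7 and 3.46, 9.62 and 5.99 CPM in Fet. These passed only with it (4.997 and 3.15, adjusted p = 0.017 and 0.033), and without it their changes were 2.46 and 1.39 (adjusted p = 0.076 and 0.29). With all libraries each was lost in 4 of 6 fits that left out 1 library (up to 0.090 and 0.29).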

How the data were processed

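Bulk RNA was sequenced in 15 libraries. Per the submitters' processing notes, reads went through CASAVA 1.8, HISAT2 2.0.2, build mm10 and Subread featureCounts 1.4.6; the annotation release, strand setting and treatment of multimapping reads are not given in the sources used here. The authors deposited raw read counts per gene and library. Of 47728 gene IDs, 47309 matched GENCODE M21 names and 419 did not. Counts were filtered with filterByExpr, scaled by TMM and fitted with edgeR 4.0.16 (robust glmQLFit, R 4.3.3, limma 3.58.1) over all 15 libraries, which share one estimate of spread. P-values were adjusted by Benjamini-Hochberg at 0.05. Standard errors are the fold change divided by the root of F. Depth was 516504 counts in the shallowest library. The gene lists were chosen with earlier results of these data known. Named genes were the 10 largest changes each way with at least 20 CPM in a group, and 4 per list each way. The 10 were ranked separately among genes passing both fits without overlap of libraries, only the second fit, and only the first. Predicted genes, pseudogenes, Y-linked genes, Xist and Tsix were left out of these rankings. Other genes were named after their values were seen. The fits were tested on simulated counts. Alternatives used DESeq2 1.42.0, voom, other scaling, no filter, thinned counts, the 2 groups alone, a replicate block and each library left out. Genes with a near-identical copy are uncertain where reads map to both.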

Additional observations from a re-analysis of the deposited data

How the results depend on the processing

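With all libraries 650 genes passed, 167 higher and 483 lower in iPax7. DESeq2 called 1735 (523 higher, 1212 lower), limma voom with quality weights 5989 (2487 higher, 3502 lower) and the 6 libraries alone 998 (290 higher). Leaving out 1 library gave 363 to 745 genes, 49 to 211 higher and 308 to 534 lower; without Fet replicate 1, 2 or 3 the total was 421, 390 and 363. Without the library labelled iPax7 replicate 1, 745 genes passed, 211 higher and 534 lower. DESeq2 then called 1868 (430 higher, 1438 lower), voom 5842 (2528 higher, 3314 lower), iPax7 replicates 2 and 3 with Fet alone 4391 (1822 higher, 2569 lower) and counts thinned to the shallowest library 358 higher. Leaving out 1 further library gave 247 to 532 genes, 62 to 127 higher and 179 to 405 lower; without iPax7 replicate 2 or 3 the total was 247 and 268, and the lone iPax7 library was assumed to vary like the other groups. Replicate numbers did not pair the samples (correlations of residuals -0.07, -0.05 and -0.04), and a replicate block called 109 higher with all libraries and 140 higher without the library labelled iPax7 replicate 1. With all libraries, voom reversed Sox2 (-3.23), Pdk1 (-1.35), Slc16a3 (-2.83) and Ddx4 (-5.83), and Pdk1 ran from -1.50 without the library labelled iPax7 replicate 1 to 1.01 without iPax7 replicate 3; the cause was not tested. The median change over all genes ran over settings between 0.00 and 0.19 with all libraries and between -0.06 and 0.06 without that library. Depth limits low genes most in Fet replicate 1, and intervals and floors cover counting error only.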

Other observations

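Of 13 protein-coding genes of the mitochondrial genome, 5 were far lower in Fet replicate 3 than in Fet replicates 1 and 2. Of these mt-Co3 stood at 2290, 1070 and 2400 CPM in iPax7 and at 2690, 5460 and 5.49 CPM in Fet. It was also low in all Emb libraries, at 10.9, 6.64 and 10.7 CPM, and in all Neo libraries, at 48.0, 63.3 and 46.6 CPM, but stood at 850, 629 and 2500 CPM in iPax3. Whether all libraries were counted with the same annotation was not tested. Xist, the noncoding RNA of the inactive X chromosome, stood at 23.9, 2.2 and 4.84 CPM in iPax7 and at 1280, 1650 and 1750 CPM in Fet. It was lower in iPax7 by edgeR's test with all libraries (-7.24, adjusted p = 5.4e-05) and without the library labelled iPax7 replicate 1 (-8.81, adjusted p = 1.1e-07). Eif2s3y, a Y-linked gene, stood at 4.36, 0.169 and 8.02 CPM in iPax7 and at 0, 0.0305 and 0 CPM in Fet.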
